A study of Mus musculus with 24 samples.

Results

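The genes described here were the nuclear receptors that carry the retinoic acid signal and the genes that bind, clear and take up retinoids around them, namely Rara, Rarb, Rarg, Rxra, Rxrb, Rxrg, Crabp1, Crabp2, Cyp26a1 and Stra6. They were chosen by gene symbol, as the entries of both deposited count tables whose symbol equals a listed name. All 10 were found in both tables, out of 26338 genes listed in either table (23095 are listed for J1 cells and 25476 for the tet-off lines).

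The study profiled polyadenylated RNA of mouse embryonic stem cells (ESCs) and of expanded potential stem cells (EPSCs), with 2 libraries per group. In the first table, wild-type J1 ESCs grown in serum and LIF with CHIR99021 and PD0325901 were measured beside D-EPSCs and L-EPSCs. D-EPSCs were kept in N2B27 medium with knockout serum replacement, LIF, CHIR99021, dimethindene maleate and minocycline hydrochloride. L-EPSCs were kept in a medium with knockout serum replacement, LIF, CHIR99021, PD0325901, A-419259, XAV939, JNK inhibitor VIII and SB203580. In the second table, 3 tet-off lines (ZHBTc4 for Oct4, 2TS22C for Sox2 and NgcKO for Nanog, here the Oct4-cKO, Sox2-cKO and Nanog-cKO lines) lacked the endogenous gene and lived on a transgene that doxycycline (Dox) shuts off. Each line was measured as ESCs, as L-EPSCs converted from them without Dox, and as L-EPSCs given Dox.

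Retinol enters cells partly through Stra6, is oxidised to retinoic acid, is carried in the cytoplasm by Crabp1 and Crabp2, and is broken down by Cyp26 enzymes. Retinoic acid binds the receptors Rara, Rarb and Rarg, which sit on DNA as pairs with Rxra, Rxrb or Rxrg, and Rarb and Cyp26a1 are themselves well known target genes of these pairs. Added retinoic acid drives mouse ESCs out of self-renewal, so the level of this machinery bears on how a culture may respond, although retinoids in the media were not analysed here.

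The values are normalized counts, and the 2 tables were normalized separately, so no test was made across them. Groups within a table were compared with limma on log2(normalized count + 1), with p values adjusted by Benjamini-Hochberg over every gene tested (21533 for J1 cells and 24007 for the tet-off lines). A call needed an adjusted p below 0.05 together with a minimum size on the log2 scale, 0.6 between culture states and 1 for Dox and for differences between lines. The labels do not say that the 2 libraries of a group came from separate cultures, so a p value here measures only the spread between samples, and an exact permutation of 2 against 2 libraries could not go below p = 0.333. Folds in words are ratios of group means, while log2 values are fitted on the scale above, so the 2 need not agree. Fold changes on this scale can understate or overstate differences of genes with few reads. The bounds and intervals given for such genes cover counting error only. Fewer cells of a type and less RNA per cell cannot be told apart in any of these values.

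As a check of the labels, Pou5f1 (Oct4) in the Oct4-cKO line stood at 8943 and 9063 in ESCs, 6420 and 6316 in untreated L-EPSCs and 162 and 184 under Dox. Sox2 in the Sox2-cKO line stood at 5688 and 5497 in ESCs, 4966 and 4701 in untreated L-EPSCs and 47.0 and 53.2 under Dox. Nanog in the Nanog-cKO line stood at 14993 and 15127 in ESCs, 9119 and 8847 in untreated L-EPSCs and 3166 and 3112 under Dox. Each targeted gene was thus lowest under Dox in its own line, and Nanog kept the largest remainder. In the other lines, Pou5f1 was 10510 and 10293, 8221 and 8490, then 3291 and 3073 in Sox2-cKO cells (ESCs, untreated L-EPSCs, Dox), and 14947 and 15077, 10949 and 10877, then 8380 and 7726 in Nanog-cKO cells. Sox2 was 8719 and 8709, 5483 and 5480, then 260.3 and 229.8 in Oct4-cKO cells, and 6729 and 6619, 4850 and 4848, then 3940 and 3895 in Nanog-cKO cells. Nanog was 9691 and 9566, 7424 and 7636, then 691 and 726 in Oct4-cKO cells, and 7007 and 6882, 7883 and 7557, then 654 and 733 in Sox2-cKO cells. Loss of the Oct4 or the Sox2 transgene came with lower values of the other pluripotency factors as well, and the differences were smaller in Nanog-cKO cells.

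Both kinds of J1 EPSC carried more Rara, Rarg, Crabp1 and Rxrg RNA than J1 ESCs, and less Rxra and Rarb. The Rarb calls depended on single libraries. L-EPSCs differed from D-EPSCs mainly by lower Crabp2 and by detectable Cyp26a1, the latter a frail call on few reads. Rxrb and Stra6 were called in neither comparison with ESCs. In D-EPSCs against ESCs, 4 of 10 members were called higher, as were 10.8% of all genes tested, and 2 were called lower, as were 9.98% of all genes. The median log2 fold change of the members was 0.64 beside 0.01 for all genes, and 0.45 over the 9 members not at the floor in both groups, with genes absent from a group set to their bound. In L-EPSCs against ESCs, 5 of 10 members were called higher (8.80% of all genes) and 3 lower (11.5% of all genes), with a member median of 1.02, also with bounds, beside 0 for all genes. Between L-EPSCs and D-EPSCs, 1 member was called higher (4.80% of all genes) and 1 lower (8.58% of all genes), with a member median of −0.05, also with bounds, beside 0. The higher one was Cyp26a1, whose call depended on single libraries, as given further below. The comparisons with ESCs share the same ESC libraries, so they are not independent.

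Markers of other cells differed widely between the J1 groups. The 10 fibroblast markers, all detected in every J1 library, summed to 121292 and 123572 in ESCs (most abundant Col1a1, 44565 and 46016), 81119 and 81491 in D-EPSCs (Fn1, 21427 and 21488) and 41302 and 42205 in L-EPSCs (Fn1, 20061 and 20354). The list was not uniform, as Col1a1, Col1a2 and Postn were called lower in D-EPSCs than in ESCs while Col6a3, Dcn and Thy1 were called higher. The 6 macrophage markers, also never at 0, summed to 2444 and 2451 in ESCs, 19534 and 19683 in D-EPSCs and 15440 and 15503 in L-EPSCs, with Lyz2 the most abundant in each library. Lyz2 carried most of these sums in EPSCs (1085 and 1068 in ESCs, 15553 and 15802 in D-EPSCs, 13018 and 12965 in L-EPSCs), and Ptprc and Cd68 were not called in L-EPSCs against ESCs. The 8 pluripotency markers were all detected and summed to 69761 and 70112 in ESCs, 38672 and 38214 in D-EPSCs and 47492 and 46845 in L-EPSCs. In L-EPSCs Nanog, Klf4 and Tfcp2l1 were called lower and the other 5 were not called, and in D-EPSCs Pou5f1, Sox2 and Zfp42 were not called. The 8 trophoblast markers summed to 1517 and 1502 in ESCs, 195 (Elf5 at 0) and 181.1 (Cdx2 at 0) in D-EPSCs and 777.2 and 809.1 (Elf5 at 0 in both) in L-EPSCs, where Krt8, Tfap2a and Gata3 were called lower and Eomes and Krt18 higher than in ESCs. The 8 primitive endoderm markers summed to 2279 and 2208 (Foxa2 and Sox7 at 0 in replicate 2) in ESCs, 4499 and 4573 (Sox17 and Foxa2 at 0) in D-EPSCs and 3356 and 3383 in L-EPSCs, with Col4a1 the most abundant. Against ESCs, Pdgfra, Dab2, Sox7 and Col4a1 were called higher in D-EPSCs, and Gata4, Sox17, Dab2 and Sox7 in L-EPSCs, with none called lower. Gata4 stood at 4.09 and 7.83 in D-EPSCs and 55.5 and 55.2 in L-EPSCs, so the sums do not rank each marker. Fn1 was also abundant in every tet-off library, from 4419 (Oct4-cKO cells under Dox) to 29559 (untreated Sox2-cKO L-EPSCs). No other fibroblast marker tested there exceeded 365.5 (Thy1, Oct4-cKO ESCs), and Lyz2 reached at most 5.55 (Oct4-cKO cells under Dox). A fibroblast sum that includes Fn1 need not reflect fibroblasts alone. By the study's methods, J1 ESCs were kept on feeder cells or on gelatin, and both EPSC types went without feeders for several passages ahead of sequencing. Whether feeder or other cells contributed to the RNA of the receptor genes in the J1 libraries was not tested.

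Conversion of the tet-off lines to L-EPSCs came with a lower Rarg in all 3 lines. Crabp1 fell in Oct4-cKO and Sox2-cKO cells and rose in Nanog-cKO cells. Rara and Rxrb were called lower in Oct4-cKO cells, and Crabp2 was called higher in Nanog-cKO cells. In Oct4-cKO cells, 2 of 10 members were called higher (13% of all genes) and 5 lower (15.4% of all genes), with a member median of −0.65, also with bounds, beside 0 for all genes. In Sox2-cKO cells, limma called 0 members higher (7.99% of all genes) and 3 lower (11.6% of all genes), with a member median of −0.52, or −0.37 with bounds, beside 0. The 3 became 1 without ESC replicate 1, as the calls of Rxra and Crabp1 were frail. At an unadjusted p under 0.05 the count of members higher in Sox2-cKO L-EPSCs was also 0, edgeR called 1 (Cyp26a1) and DESeq2 called 0. In Nanog-cKO cells, 4 members were called higher (12.2% of all genes) and 2 lower (14.7% of all genes), with a member median of 0.03, also with bounds, beside 0.

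Sums of cell type markers differed on conversion too. The 8 pluripotency markers, never at 0, summed to 69882 and 69394 in Oct4-cKO ESCs and 45542 and 44486 in untreated L-EPSCs, to 60268 and 59693 and then 50192 and 49859 in Sox2-cKO cells, and to 83000 and 84182 and then 55803 and 55441 in Nanog-cKO cells. The 8 trophoblast markers summed to 1610 and 1534 and then 4143 and 4028 in Oct4-cKO cells, to 5450 and 5428 and then 1816 and 1836 in Sox2-cKO cells, where Krt7, Krt8 and Krt18 were called lower and the other 5 were not called, and to 580.3 and 574 (Elf5 at 0 in replicate 2) and then 599.7 and 583 (Elf5 again at 0 in replicate 2) in Nanog-cKO cells, where Gata3, Tfap2a, Krt7 and Krt18 were called higher and Eomes lower. The 8 primitive endoderm markers, mostly Col4a1, summed to 3085 and 3213 (Foxa2 at 0) and then 13665 and 13847 in Oct4-cKO cells, to 2645 and 2711 and then 7789 and 7519 (Foxa2 at 0) in Sox2-cKO cells, where Gata4, Foxa2, Pdgfra and Sox7 were called lower and Gata6, Dab2 and Col4a1 higher, and to 837.5 and 709.6 and then 1466 and 1436 in Nanog-cKO cells, where Gata4, Gata6, Sox17 and Col4a1 were called higher and Sox7 lower. In Oct4-cKO cells Krt7, Krt8, Krt18 and Gata3 stood higher in both untreated L-EPSC libraries, while Cdx2, Eomes and Tfap2a overlapped between ESCs and L-EPSCs. Elf5 was low in both states there (5.23 and 6.77, then 7.99 and 8.98). Of the endoderm markers in that line, Gata6, Sox17, Foxa2, Pdgfra, Dab2 and Col4a1 stood higher in L-EPSCs, Gata4 overlapped and Sox7 was lower. Whether the receptor genes followed these markers was not tested.

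Dox treatment of L-EPSCs came with a lower Crabp1 in all 3 lines. Rarg was called lower and Rxra higher in the Oct4-cKO and Sox2-cKO lines, Rara lower and Stra6 higher in the Nanog-cKO line, and Rarb higher in the Sox2-cKO and Nanog-cKO lines, while direct tests between the lines are given further below. Both Rarb calls rested on low counts and ended under alternatives that are also given below. Cyp26a1 fell to the edge of detection in Sox2-cKO cells. Under Dox in Oct4-cKO cells, 1 of 10 members was called higher (8.53% of all genes) and 3 lower (10.8% of all genes), with a member median of 0.51, or 0.46 with bounds over 9 members, beside 0 for all genes. At a threshold of 0.6 the members called there would be 7 in place of 4, with Rxrb (0.76) and Crabp2 (0.68) joining as higher and Rara (−0.92) as lower. In Sox2-cKO cells under Dox, 2 members were called higher (7.79% of all genes) and 3 lower (7.32% of all genes), with a member median of 0.11, or 0.23 with bounds over 9 members, beside 0. In Nanog-cKO cells under Dox, 2 members were called higher (2.80% of all genes) and 2 lower (2.59% of all genes), with a member median of 0.08, or 0.13 with bounds over 9 members, beside 0. With the groups fitted alone the genes called in that comparison were 479 in place of 1293, and 37.79% in place of 51.97% of them were higher. The untreated L-EPSC libraries serve both the conversion and the Dox comparison of a line, so a high untreated value enters both with opposite sign.

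Sums of cell type markers also differed with Dox. The 8 trophoblast markers, all detected in the Oct4-cKO and Sox2-cKO L-EPSC libraries, summed to 4143 and 4028 without and 28832 and 28570 with Dox in Oct4-cKO cells, and to 1816 and 1836 without and 11803 and 11787 with Dox in Sox2-cKO cells, with Krt8 the most abundant. In Nanog-cKO cells they summed to 599.7 and 583 without Dox, where Krt18 was the most abundant and Elf5 was at 0 in replicate 2, and to 946 and 932 with Dox, where Krt8 led. The 8 primitive endoderm markers, with Col4a1 the most abundant throughout, summed to 13665 and 13847 without and 6822 and 6716 with Dox in Oct4-cKO cells, to 7789 and 7519 without (Foxa2 at 0) and 3484 and 3493 with Dox (Sox17 at 0 in replicate 2) in Sox2-cKO cells, and to 1466 and 1436 without and 809.9 and 870.1 with Dox (Sox7 at 0 in replicate 1) in Nanog-cKO cells. Col4a1 made up most of each sum and carried its fall in each line. It stood at 12470 and 12736 without and 5484 and 5464 with Dox in Oct4-cKO cells and at 7196 and 6995 without and 2632 and 2634 with Dox in Sox2-cKO cells. In Nanog-cKO cells it stood at 1097 and 1084 without and 445.3 and 507 with Dox. Other genes of the list went both ways, with Pdgfra called higher and Gata4 and Sox17 lower in the Oct4-cKO and Sox2-cKO lines, and Foxa2 higher in Sox2-cKO cells. The 8 pluripotency markers, never at 0, summed to 45542 and 44486 without and 6806 and 6979 with Dox in Oct4-cKO cells, to 50192 and 49859 without and 10736 and 10244 with Dox in Sox2-cKO cells, and to 55803 and 55441 without and 35984 and 34781 with Dox in Nanog-cKO cells. Whether the receptor genes followed such a shift in cell type or the loss of the transgene itself was not tested.

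**Figure D1:**
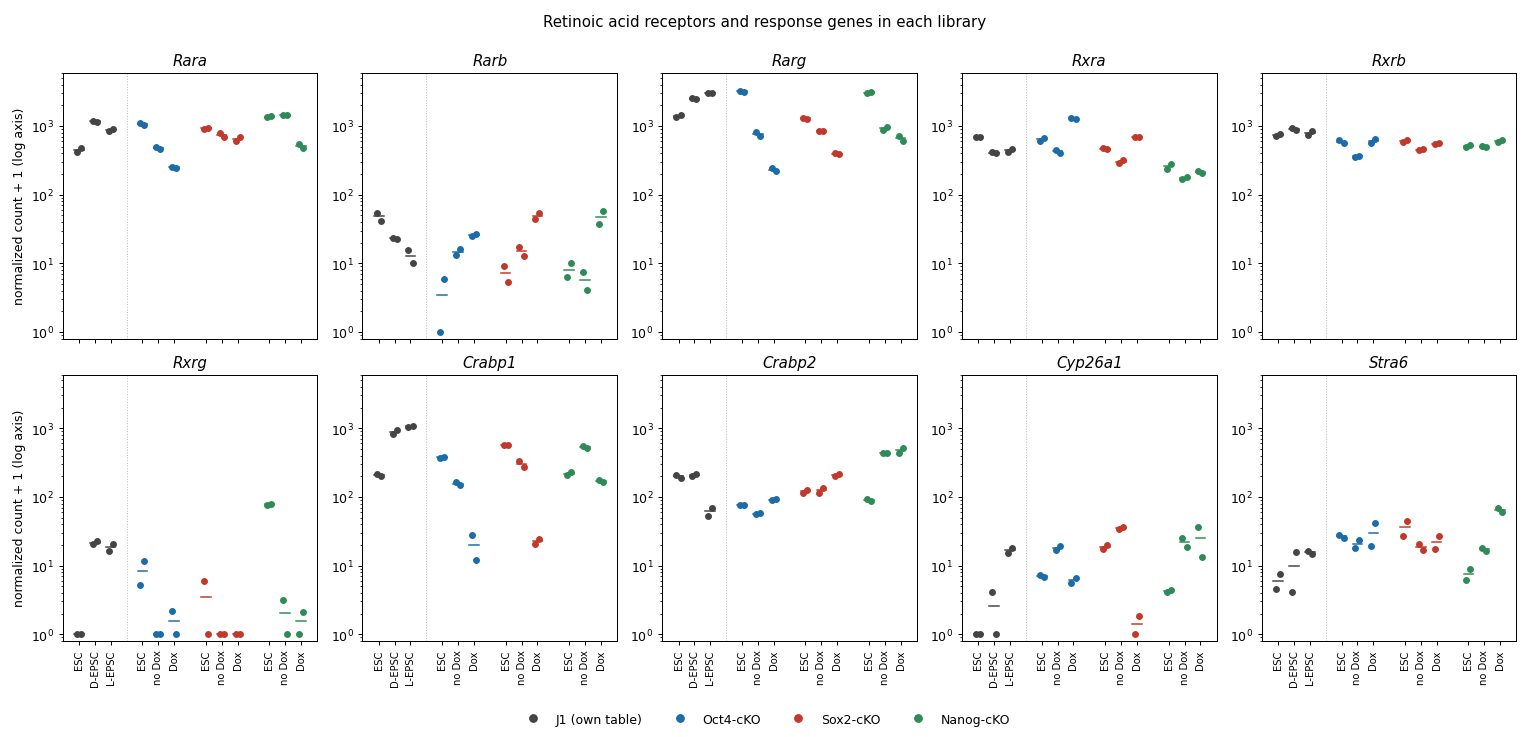
Normalized counts of the 10 members (log axis, count + 1) in the 12 groups, with a point per library, a line at each group mean and a dotted line between the separately normalized J1 and tet-off tables. Rarg and Crabp1 stand higher in J1 EPSCs than in J1 ESCs, and Crabp1 stands lowest in Oct4-cKO and Sox2-cKO cells under Dox.

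Per kilobase of exon, Crabp1 (median 1099 over the J1 libraries and 269 over the tet-off libraries) and Rarg (606 and 203) had the highest medians of the members, though the order differed between groups. Among the RARs, the medians of Rara were 191 and 162 and those of Rarb far lower (6.68 and 3.70), and Rara stood above Rarg in Sox2-cKO cells under Dox (143 and 96.0, group means) and in untreated Nanog-cKO L-EPSCs (316.5 and 223.5). Among the RXRs, the medians were 217 and 148 for Rxrb, 81.0 and 78.3 for Rxra and 7.58 and 0 for Rxrg, while in Oct4-cKO cells under Dox Rxra (236) stood above Rxrb (165), Rarg (56.3) and Crabp1 (23.4). Crabp2 had medians of 147 and 85.7 and stood above Crabp1 under Dox in each line (68.4 and 23.4 in Oct4-cKO, 157 and 27.1 in Sox2-cKO, 359 and 211 in Nanog-cKO cells). Cyp26a1 (0.864 and 7.99) and Stra6 (1.74 and 3.60) were also low.

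Rara (ENSMUSG00000037992, chromosome 11, 98789132 to 98836256, plus strand, NCBIM37) encodes the retinoic acid receptor alpha, the broadly expressed RAR. Its normalized counts were 423 and 482 in J1 ESCs, 1183 and 1159 in D-EPSCs and 842 and 907 in L-EPSCs, so the 3 groups did not overlap and D-EPSCs were highest. With limma, Rara was 2.59-fold higher in D-EPSCs than in ESCs (log2 fold change 1.37 ± 0.07 SE, Benjamini-Hochberg adjusted p = 4.14e-06). In L-EPSCs it was 1.93-fold higher than in ESCs (log2 0.95 ± 0.07 SE, limma, Benjamini-Hochberg adjusted p = 2.99e-05). The step from D-EPSCs to L-EPSCs, −0.42 on the log2 scale, did not reach the threshold. In Oct4-cKO cells the counts were 1106 and 1029 in ESCs, 488.9 and 459 in untreated L-EPSCs and 256 and 245 under Dox, a descending order without overlap. Sox2-cKO cells had 917 and 939.9, then 784 and 698, then 610.4 and 699.9, with untreated and Dox libraries overlapping. Nanog-cKO cells had 1348 and 1383, then 1427 and 1467, then 549.9 and 471, so only the Dox libraries were low. On conversion Rara fell in Oct4-cKO cells (log2 −1.17 ± 0.08 SE, limma, Benjamini-Hochberg adjusted p = 3.06e-09) and was not called in the others (−0.33 in Sox2-cKO and 0.08 in Nanog-cKO cells). Under Dox it fell 2.84-fold in Nanog-cKO cells (log2 −1.51 ± 0.08 SE, limma, Benjamini-Hochberg adjusted p = 9.43e-10). The Dox difference in Oct4-cKO cells, −0.92, was short of the threshold of 1 at a limma Benjamini-Hochberg adjusted p of 6.40e-08, and that in Sox2-cKO cells was −0.18.

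Rarb (ENSMUSG00000017491, chromosome 14, 17263356 to 17651381, minus strand) encodes the RAR that retinoic acid itself induces in many cells. Its counts were low, at 53.9 and 40.6 in J1 ESCs, 22.5 and 21.5 in D-EPSCs and 14.4 and 9.19 in L-EPSCs, in that order without overlap. The call in D-EPSCs (log2 −1.06 ± 0.35 SE, limma, Benjamini-Hochberg adjusted p = 0.0492) was weak. It ended without D-EPSC replicate 1 (adjusted p = 0.174) or 2 (0.192), without ESC replicate 1 (0.223) or 2 (0.114), and with a pseudocount of 0.1 (0.0582), and over all alternatives the adjusted p ranged from 0.00556 to 0.223. In L-EPSCs Rarb was 4.01-fold lower than in ESCs (log2 −1.93 ± 0.35 SE, limma, Benjamini-Hochberg adjusted p = 0.00330), a call that ended without ESC replicate 1 (0.0635, range over alternatives 5.20e-05 to 0.0635). The difference of −0.88 between L-EPSCs and D-EPSCs was not called.

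In Oct4-cKO cells Rarb stood at 0 and 4.83 in ESCs, 12.4 and 15.3 in untreated L-EPSCs and 24.2 and 25.5 under Dox. Sox2-cKO cells had 8.08 and 4.34, then 16.2 and 11.97, then 42.9 and 52.3, and Nanog-cKO cells had 5.23 and 8.97, then 6.39 and 3.06, then 36.0 and 57.3. Dox libraries were thus highest in each line, and ESCs and untreated L-EPSCs overlapped in Nanog-cKO cells only. Rarb rose on conversion of Oct4-cKO cells by a ratio of 5.51 (95% counting interval 2.12 to 18.1, limma, Benjamini-Hochberg adjusted p = 0.00341) against ESCs with 0 and 5 reads, a call that ended without ESC replicate 1 (adjusted p = 0.0655) and with the groups fitted alone (0.208, range over alternatives 0.000119 to 0.208). Values on conversion were 1.10 in Sox2-cKO and −0.52 in Nanog-cKO cells, neither called. Under Dox Rarb rose 9.88-fold in Nanog-cKO cells (log2 3.08 ± 0.65 SE, limma, Benjamini-Hochberg adjusted p = 0.00204), which no left-out library ended, although fitting the groups alone did (0.0973, range over alternatives 3.05e-10 to 0.0973), as did a pseudocount of 0.1 (0.0576). The call under Dox in Sox2-cKO cells (log2 1.70 ± 0.65 SE, limma, Benjamini-Hochberg adjusted p = 0.0496) ended without Dox replicate 1 (0.133) or 2 (0.209), without untreated replicate 1 (0.112) or 2 (0.216), with TMM scaling (0.0501), with median centring (0.0583) and with a pseudocount of 0.1 (0.293), over a range of 2.26e-05 to 0.293. In Oct4-cKO cells the Dox difference of 0.81 was not called.

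Rarg (ENSMUSG00000001288, chromosome 15, 102065369 to 102087948, minus strand) encodes the retinoic acid receptor gamma. It was counted at 1361 and 1433 in J1 ESCs, 2518 and 2459 in D-EPSCs and 2983 and 2995 in L-EPSCs, in ascending order without overlap. Against ESCs, limma gave a log2 fold change of 0.83 ± 0.04 SE in D-EPSCs (Benjamini-Hochberg adjusted p = 1.57e-06). For L-EPSCs the value was 1.10 ± 0.04 SE, or 2.14-fold (limma, Benjamini-Hochberg adjusted p = 4.43e-07), and the difference between the EPSC types, 0.26, was not called. The tet-off lines ran the other way, with 3200 and 3167 in Oct4-cKO ESCs, 826 and 719.5 in untreated L-EPSCs and 239.5 and 223 under Dox. Sox2-cKO cells had 1324 and 1267, then 833 and 836, then 397 and 392.5, and Nanog-cKO cells had 3030 and 3116, then 874.5 and 962.5, then 716 and 609. No groups overlapped within a line. On conversion Rarg fell 4.12-fold in Oct4-cKO cells (log2 −2.04 ± 0.08 SE, limma, Benjamini-Hochberg adjusted p = 1.46e-12) and 3.35-fold in Nanog-cKO cells (−1.74 ± 0.08 SE, adjusted p = 1.16e-11). The fall in Sox2-cKO cells was smaller, at 1.55-fold (log2 −0.63 ± 0.08 SE, limma, Benjamini-Hochberg adjusted p = 3.99e-06). Under Dox it fell a further 3.34-fold in Oct4-cKO cells (log2 −1.73 ± 0.08 SE, limma, Benjamini-Hochberg adjusted p = 9.18e-12) and 2.11-fold in Sox2-cKO cells (−1.08 ± 0.08 SE, adjusted p = 5.30e-09). In Nanog-cKO cells the value under Dox was −0.47, short of the threshold. The direction on conversion was opposite to that in J1 cells in all 3 lines, a difference that was not tested.

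Rxra (ENSMUSG00000015846, chromosome 2, 27531960 to 27618477, plus strand) encodes the retinoid X receptor alpha, a shared partner of RARs and other nuclear receptors. It was at 693 and 689.8 in J1 ESCs, 415 and 402 in D-EPSCs and 419.5 and 465 in L-EPSCs, so ESCs stood apart above both EPSC types. Rxra was lower in D-EPSCs (log2 −0.76 ± 0.07 SE, limma, Benjamini-Hochberg adjusted p = 8.62e-05). In L-EPSCs it was also lower (log2 −0.64 ± 0.07 SE, limma, Benjamini-Hochberg adjusted p = 0.000202), though without L-EPSC replicate 1 the value of −0.57 missed the threshold, and the EPSC types differed by 0.11, not called. Oct4-cKO cells had 608 and 671 in ESCs, 447 and 408 in untreated L-EPSCs and 1324 and 1253 under Dox. Sox2-cKO cells had 471.5 and 454, then 289.5 and 314, then 686 and 699, and Nanog-cKO cells had 237 and 282.5, then 169 and 181.5, then 219 and 209. Untreated L-EPSCs were lowest in each line, and Dox libraries were highest in the Oct4-cKO and Sox2-cKO lines.

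On conversion the Rxra values were similar in each line, all near the threshold of 0.6. The value passed in Sox2-cKO cells (log2 −0.62 ± 0.09 SE, limma, Benjamini-Hochberg adjusted p = 2.49e-05), but missed the fold threshold without ESC replicate 1 (−0.59), without untreated replicate 1 (−0.56), with TMM scaling (−0.59) and with edgeR (−0.59). In Oct4-cKO cells the value of −0.58 was not called, and passed without ESC replicate 1 (−0.65), without untreated replicate 1 (−0.64) and with median centring (−0.63). In Nanog-cKO cells the value of −0.56 was not called, and passed without ESC replicate 1 (−0.69) and without untreated replicate 2 (−0.61). Under Dox Rxra rose 3.01-fold in Oct4-cKO cells (log2 1.59 ± 0.09 SE, limma, Benjamini-Hochberg adjusted p = 1.66e-10). In Sox2-cKO cells it rose 2.29-fold (log2 1.2 ± 0.09 SE, limma, Benjamini-Hochberg adjusted p = 8.36e-09), and in Nanog-cKO cells the value was 0.29, not called.

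Rxrb (ENSMUSG00000039656, chromosome 17, 34168757 to 34175338, plus strand) encodes the beta form. Its counts were 718 and 764 in J1 ESCs, 937 and 876 in D-EPSCs and 728 and 842 in L-EPSCs, with ESCs and L-EPSCs overlapping. None of the J1 differences was called (0.29 for D-EPSCs and 0.08 for L-EPSCs against ESCs, −0.21 between EPSC types). In Oct4-cKO cells it was 628 and 555 in ESCs, 352 and 367 in untreated L-EPSCs and 572 and 647 under Dox, so untreated L-EPSCs were lowest. Sox2-cKO cells had 583.5 and 629.5, then 444 and 462, then 538 and 564, and Nanog-cKO cells had 491 and 520.2, then 502 and 497.5, then 592 and 629.5, where ESCs and untreated L-EPSCs overlapped. Rxrb fell on conversion of Oct4-cKO cells, 1.64-fold (log2 −0.71 ± 0.08 SE, limma, Benjamini-Hochberg adjusted p = 6.10e-07). The conversion value in Sox2-cKO cells, −0.42, was short of the threshold at a limma Benjamini-Hochberg adjusted p of 0.000281, and that in Nanog-cKO cells was −0.02. No difference of Rxrb between lines was called (conversion in Oct4-cKO against Sox2-cKO cells −0.29, against Nanog-cKO cells −0.70). The Dox values of 0.76, 0.28 and 0.29 (Oct4-cKO, Sox2-cKO, Nanog-cKO) were all short of the threshold.

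Rxrg (ENSMUSG00000015843, chromosome 1, 169528515 to 169569754, plus strand) encodes the gamma form, the most restricted RXR. It had no reads in J1 ESCs (0 and 0), against 19.4 and 21.5 in D-EPSCs and 15.4 and 19.5 in L-EPSCs, whose ranges overlapped. Against a floor of 3 reads per library, D-EPSCs carried at least 7.50-fold more Rxrg than ESCs (limma, Benjamini-Hochberg adjusted p = 0.000165). In L-EPSCs it was at least 6.40-fold higher than in ESCs (limma, Benjamini-Hochberg adjusted p = 0.000213), and −0.22 against D-EPSCs, not called. Nanog-cKO ESCs held the highest values of any tet-off group, 76.3 and 77.4, beside 2.13 and 0 in untreated L-EPSCs and 0 and 1.12 under Dox. Oct4-cKO cells had 4.18 and 10.6 in ESCs, 0 and 0 in untreated L-EPSCs and 1.15 and 0 under Dox, and Sox2-cKO cells had 5.05 and 0, then 0 and 0, then 0 and 0. Outside ESCs, Rxrg was therefore at or near 0 in all tet-off lines. On conversion of Nanog-cKO cells it fell by a ratio of 73.7 (95% counting interval 20.0 to 615, limma, Benjamini-Hochberg adjusted p = 1.75e-05). On conversion of Oct4-cKO cells it was at least 2.77-fold lower (limma, Benjamini-Hochberg adjusted p = 0.00456), a call that ended without ESC replicate 2 (adjusted p = 0.0759, range over alternatives 0.000193 to 0.0759). No fold is given on conversion of Sox2-cKO cells or for Dox in any line, where both groups were at the floor or under it.

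Crabp1 (ENSMUSG00000032291, chromosome 9, 54612555 to 54620917, plus strand) encodes a cytoplasmic protein that binds retinoic acid and passes it to breakdown. Its counts were 217.5 and 201.0 in J1 ESCs, 836 and 926 in D-EPSCs and 1046 and 1080 in L-EPSCs, also in ascending order without overlap. Crabp1 was 4.21-fold higher in D-EPSCs than in ESCs (log2 2.07 ± 0.07 SE, limma, Benjamini-Hochberg adjusted p = 4.90e-07). In L-EPSCs it was 5.08-fold higher (log2 2.34 ± 0.07 SE, limma, Benjamini-Hochberg adjusted p = 3.21e-07), and the EPSC types differed by 0.27, not called. In Oct4-cKO cells the counts were 368 and 382 in ESCs, 162 and 145.5 in untreated L-EPSCs and 26.5 and 11.1 under Dox. Sox2-cKO cells had 574 and 575, then 328 and 269, then 19.8 and 23.7, and Nanog-cKO cells had 204 and 228, then 545 and 509.8, then 177 and 162. No groups overlapped within a line, and Nanog-cKO cells alone peaked in untreated L-EPSCs.

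On conversion Crabp1 fell in Oct4-cKO cells (log2 −1.28 ± 0.25 SE, limma, Benjamini-Hochberg adjusted p = 0.000385) and rose in Nanog-cKO cells (1.29 ± 0.25 SE, adjusted p = 0.000376). It also fell in Sox2-cKO cells (log2 −0.95 ± 0.25 SE, limma, Benjamini-Hochberg adjusted p = 0.00571), a call that ended without ESC replicate 1 or 2 (adjusted p = 0.0564 each) and without untreated replicate 2 (0.0918), over a range of 7.48e-17 to 0.0918. Under Dox Crabp1 fell 13.7-fold in Sox2-cKO cells (log2 −3.72 ± 0.25 SE, limma, Benjamini-Hochberg adjusted p = 2.86e-09). In Oct4-cKO cells it fell 8.19-fold (log2 −3.09 ± 0.25 SE, limma, Benjamini-Hochberg adjusted p = 2.08e-08), with log2 values from −3.68 to −2.49 when 1 library was left out. The fall under Dox in Nanog-cKO cells was 3.12-fold (log2 −1.64 ± 0.25 SE, limma, Benjamini-Hochberg adjusted p = 9.76e-05), which brought the gene back to near its ESC values.

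Crabp2 (ENSMUSG00000004885, chromosome 3, 87752588 to 87757298, plus strand) encodes the binding protein that delivers retinoic acid to RARs in the nucleus. It stood at 209 and 187 in J1 ESCs, 202 and 213 in D-EPSCs and 52.4 and 69.0 in L-EPSCs, so L-EPSCs alone were low and the other groups overlapped. In L-EPSCs it was 3.27-fold lower than in ESCs (log2 −1.70 ± 0.16 SE, limma, Benjamini-Hochberg adjusted p = 9.25e-05). Against D-EPSCs it was 3.42-fold lower (log2 −1.77 ± 0.16 SE, limma, Benjamini-Hochberg adjusted p = 0.000133), while D-EPSCs and ESCs differed by 0.07, not called. Oct4-cKO cells had 75.3 and 76.4 in ESCs, 55.9 and 56.6 in untreated L-EPSCs and 89.8 and 91.0 under Dox. Sox2-cKO cells had 114 and 124, then 112 and 134, then 199.6 and 216, and Nanog-cKO cells had 93.0 and 86.3, then 436 and 428, then 440.1 and 509. Nanog-cKO L-EPSCs, with or without Dox, were above every other tet-off library. On conversion Crabp2 rose 4.82-fold in Nanog-cKO cells (log2 2.26 ± 0.12 SE, limma, Benjamini-Hochberg adjusted p = 1.56e-10), against values of −0.42 in Oct4-cKO and 0.04 in Sox2-cKO cells. The Dox values of 0.68, 0.76 and 0.13 (Oct4-cKO, Sox2-cKO, Nanog-cKO) did not reach the threshold.

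Cyp26a1 (ENSMUSG00000024987, chromosome 19, 37772298 to 37776018, plus strand) encodes the enzyme that clears retinoic acid and is itself induced by it. Its counts were 0 and 0 in J1 ESCs, 3.06 and 0 in D-EPSCs and 14.4 and 17.2 in L-EPSCs, so only L-EPSCs were clearly above the floor. In L-EPSCs it was at least 5.79-fold higher than in ESCs (limma, Benjamini-Hochberg adjusted p = 0.00276). This call ended without ESC replicate 1 (0.0829) or 2 (0.0828) and without L-EPSC replicate 1 (0.0648) or 2 (0.0734), over a range of 0.000409 to 0.0829. Against D-EPSCs the ratio was 10.5 (95% counting interval 3.25 to 53.8, limma, Benjamini-Hochberg adjusted p = 0.0144), and the call ended without L-EPSC replicate 1 (0.131) or 2 (0.150), with the groups fitted alone (0.104) and with a pseudocount of 0.1 (0.0793), over a range of 0.00993 to 0.150. Between D-EPSCs and ESCs both groups were at the floor and no fold is given.

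Oct4-cKO cells held Cyp26a1 at 6.27 and 5.80 in ESCs, 16.0 and 17.97 in untreated L-EPSCs and 4.61 and 5.55 under Dox. Sox2-cKO cells had 16.2 and 19.1, then 33.5 and 35.9, then 0 and 0.818, and Nanog-cKO cells had 3.14 and 3.36, then 24.5 and 17.3, then 35.1 and 12.4. Untreated L-EPSCs were above ESCs in each line without overlap, and the Dox libraries of Nanog-cKO cells spanned the untreated ones. On conversion it rose in Nanog-cKO cells by a ratio of 6.42 (95% counting interval 2.7 to 18.5, limma, Benjamini-Hochberg adjusted p = 0.00110). The call in Oct4-cKO cells (log2 1.35 ± 0.51 SE, limma, Benjamini-Hochberg adjusted p = 0.0400) ended without ESC replicate 1 (0.0839) or 2 (0.106), without untreated replicate 1 (0.0806) or 2 (0.121) and with a pseudocount of 0.1 (0.194), over a range of 0.0170 to 0.194. In Sox2-cKO cells the value of 0.94 was not called by limma, though edgeR called it (0.99, adjusted p = 0.0472, range over alternatives 0.0472 to 0.424). Under Dox Cyp26a1 fell in Sox2-cKO cells by a ratio of 84.6 (95% counting interval 14.7 to 3392, limma, Benjamini-Hochberg adjusted p = 9.35e-07). It also fell in Oct4-cKO cells (log2 −1.57 ± 0.51 SE, limma, Benjamini-Hochberg adjusted p = 0.0188), a call that ended without Dox replicate 1 (0.0690), without untreated replicate 2 (0.0710) and with a pseudocount of 0.1 (0.124), over a range of 0.00982 to 0.124. In Nanog-cKO cells the Dox value was 0.02, not called.

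Stra6 (ENSMUSG00000032327, chromosome 9, 57911595 to 58001803, plus strand) encodes the membrane receptor that takes up retinol from its carrier in serum. It was low in J1 cells, at 3.60 and 6.46 in ESCs, 3.06 and 14.7 in D-EPSCs and 15.4 and 13.8 in L-EPSCs, with D-EPSCs spanning most of the range. No J1 difference was called (0.45 for D-EPSCs and 1.41 for L-EPSCs against ESCs, 0.97 between EPSC types). Oct4-cKO cells had 27.2 and 24.2 in ESCs, 16.9 and 22.5 in untreated L-EPSCs and 18.4 and 40.0 under Dox. Sox2-cKO cells had 26.2 and 43.4, then 19.4 and 16.0, then 16.5 and 26.2, and Nanog-cKO cells had 5.23 and 7.85, then 17.04 and 15.3, then 66.8 and 59.6. Only Nanog-cKO cells showed 3 separate levels, with Dox highest. Under Dox Stra6 rose 3.91-fold in Nanog-cKO cells (log2 1.90 ± 0.41 SE, limma, Benjamini-Hochberg adjusted p = 0.00230), and the values of 0.46 in Oct4-cKO and 0.23 in Sox2-cKO cells were not called. On conversion it rose in Nanog-cKO cells (log2 1.21 ± 0.41 SE, limma, Benjamini-Hochberg adjusted p = 0.0243), which ended without ESC replicate 1 (0.148), without untreated replicate 1 (0.0986) or 2 (0.0621) and with the groups fitted alone (0.120), over a range of 0.00791 to 0.148. The conversion value in Oct4-cKO cells was −0.38, not called, and that in Sox2-cKO cells was −0.90, which edgeR alone called (−0.97, adjusted p = 0.0225, range over alternatives 0.0225 to 0.454).

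**Figure D2:**
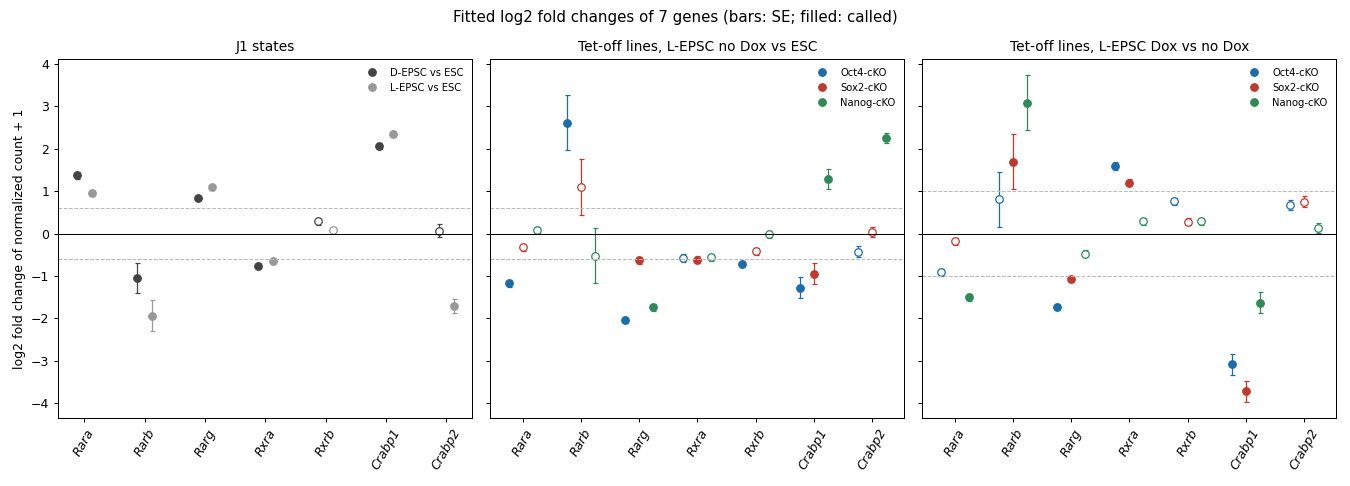
Log2 fold changes with standard errors of 7 members (panels for J1 states, conversion and Dox), with filled points for called differences and dashed lines at the thresholds. Rarg and Crabp1 lie above 0 in both J1 EPSC types, whereas Rarg lies below 0 on conversion of each tet-off line.

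The lines were then compared directly, since a call in one line and none in another does not show a difference. Nanog-cKO cells stood apart on conversion, mainly through Crabp1 and Crabp2, and under Dox they differed from both other lines in Crabp1. Under Dox, the Crabp1 difference from Oct4-cKO cells was frail, at −1.45 and at −0.86 without Oct4-cKO Dox replicate 2. Sox2-cKO cells differed from both other lines under Dox in Cyp26a1, and the remaining Dox calls between lines (Rara, Rarg, Rxra and Stra6) held for 1 pair each. For conversion, Oct4-cKO against Sox2-cKO gave 0 members higher by limma (3.32% of all genes) and 1 lower (2.04% of all genes), and the 0 stayed 0 at an unadjusted p under 0.05, with edgeR and with DESeq2. Oct4-cKO against Nanog-cKO gave 1 higher (Rarb, with few reads, beside 4.49% of all genes) and 3 lower (4.09% of all genes), and Sox2-cKO against Nanog-cKO gave 2 higher (Rarg, and Rxrg at the floor in 1 line, beside 4.12% of all genes) and 3 lower (5.04% of all genes). For Dox, Oct4-cKO against Sox2-cKO gave 1 higher (2.12% of all genes) and 0 lower by limma (4.69% of all genes), where 2 (Rara and Rarg) had an unadjusted p under 0.05 and edgeR and DESeq2 called 0. Oct4-cKO against Nanog-cKO under Dox gave 1 higher (6.17% of all genes) and 2 lower (8.59% of all genes), and Sox2-cKO against Nanog-cKO gave 1 higher (5.57% of all genes) and 3 lower (5.74% of all genes). Each targeted gene is represented by a single line, so the gene and other differences between the lines cannot be told apart.

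The largest well-measured differences on conversion were those of Crabp2 and Crabp1. Crabp2 differed by −2.68 ± 0.17 (SE) between Oct4-cKO and Nanog-cKO cells (limma, Benjamini-Hochberg adjusted p = 8.22e-09) and by −2.21 ± 0.17 between Sox2-cKO and Nanog-cKO cells (adjusted p = 8.44e-08). Crabp1 differed by −2.57 ± 0.35 (SE) between Oct4-cKO and Nanog-cKO cells (limma, Benjamini-Hochberg adjusted p = 3.29e-05) and by −2.23 ± 0.35 between Sox2-cKO and Nanog-cKO cells (adjusted p = 0.000131). For Rarg the conversion in Oct4-cKO cells was lower by 1.41 ± 0.11 (SE) than in Sox2-cKO cells (limma, Benjamini-Hochberg adjusted p = 8.49e-08), and that in Sox2-cKO cells was higher by 1.11 ± 0.11 than in Nanog-cKO cells (adjusted p = 9.14e-07). Rara differed by −1.25 ± 0.11 (SE) between Oct4-cKO and Nanog-cKO cells (limma, Benjamini-Hochberg adjusted p = 4.14e-07). Rarb passed the test between the same lines (limma, Benjamini-Hochberg adjusted p = 0.0186), but no size is given, as Oct4-cKO ESCs averaged under the floor, and the call ended without Nanog-cKO ESC replicate 2 (0.0889), Nanog-cKO untreated replicate 2 (0.0873), Oct4-cKO ESC replicate 1 (0.0736), Oct4-cKO untreated replicate 1 (0.0529) or 2 (0.0760) and with the groups fitted alone (0.168), over a range of 0.000791 to 0.168. Rarb between Oct4-cKO and Sox2-cKO cells was not called and passed without Oct4-cKO ESC replicate 2, which leaves an ESC library with 0 reads. Stra6 between Oct4-cKO and Nanog-cKO cells, −1.59 and not called, passed with edgeR (−1.69), with the groups fitted alone and among genes with a mean of at least 10, and Cyp26a1 between Sox2-cKO and Nanog-cKO cells, −1.40 and not called, passed with the groups fitted alone. Rxrg between Sox2-cKO and Nanog-cKO cells also passed with limma (Benjamini-Hochberg adjusted p = 0.00896), but both Sox2-cKO groups were at the floor or averaged under it, so no size is given, and it did not pass without Nanog-cKO untreated replicate 2 (0.0617) or Sox2-cKO ESC replicate 2 (0.0581), nor with edgeR, with DESeq2 (0.359), with the groups fitted alone (0.109) or with a pseudocount of 0.1 (0.279), over a range of 0.00171 to 0.9998. Stra6 between Sox2-cKO and Nanog-cKO cells, −2.11 ± 0.58 (SE, limma, Benjamini-Hochberg adjusted p = 0.0121), ended without Sox2-cKO ESC replicate 2 (0.0610, range over alternatives 0.00181 to 0.0610).

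Under Dox, Cyp26a1 set the Sox2-cKO line apart, at 3.16 ± 0.72 (SE) for Oct4-cKO against Sox2-cKO cells (limma, Benjamini-Hochberg adjusted p = 0.00325) and −4.75 ± 0.72 for Sox2-cKO against Nanog-cKO cells (adjusted p = 7.03e-05), sizes that depend on the offset, as Sox2-cKO Dox libraries held 0 and 1 read. Rara differed by 1.33 ± 0.11 (SE) between Sox2-cKO and Nanog-cKO cells (limma, Benjamini-Hochberg adjusted p = 1.33e-07). Between Oct4-cKO and Nanog-cKO cells Rarg differed by −1.26 ± 0.11 (SE, limma, Benjamini-Hochberg adjusted p = 8.21e-08) and Rxra by 1.30 ± 0.12 (adjusted p = 2.89e-07). Crabp1 differed by −2.08 ± 0.35 (SE) between Sox2-cKO and Nanog-cKO cells (limma, Benjamini-Hochberg adjusted p = 0.000191). Between Oct4-cKO and Nanog-cKO cells it differed by −1.45 ± 0.35 (SE, limma, Benjamini-Hochberg adjusted p = 0.00359), which fell short of the threshold without Oct4-cKO Dox replicate 2 (−0.86) and ended with the groups fitted alone (0.126, range over alternatives 6.35e-06 to 0.126), and Oct4-cKO against Sox2-cKO, 0.63, passed without that library (1.23). Stra6 between Sox2-cKO and Nanog-cKO cells, −1.67 ± 0.58 (SE, limma, Benjamini-Hochberg adjusted p = 0.0384), ended without Nanog-cKO Dox replicate 1 (0.0961) or 2 (0.0691), Nanog-cKO untreated replicate 1 (0.0654) or 2 (0.0916), Sox2-cKO Dox replicate 1 (0.135) or Sox2-cKO untreated replicate 1 (0.105) or 2 (0.0571), over a range of 0.00569 to 0.135. Not called between Oct4-cKO and Nanog-cKO cells were Cyp26a1 (−1.59), which passed without Nanog-cKO Dox replicate 2 (−2.31) and with edgeR (−1.94), and Stra6 (−1.44), which passed without Oct4-cKO Dox replicate 2 (−1.98), with edgeR (−1.38) and among genes with a mean of at least 10. Rarb between the same lines (−2.28) was not called, but passed with edgeR (−2.42), with DESeq2 (−2.46), with the groups fitted alone and among genes with a mean of at least 10.

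Promoter sequence was searched for direct repeats of the receptor half-site (AGGTCA, also with G as the first or T as the third base) on both strands, in windows of 300 bases from 250 before to 50 after each annotated RefSeq start (GRCm38.p6). Repeats with a spacer of 5 bases (DR5) were found in 32 of 32851 promoters (0.0974%), and in 2 of the 19 promoters of members, those of Rarb and Cyp26a1. Repeats with a spacer of 2 bases were in 88 promoters (0.268%) and with a spacer of 1 base in 73 (0.222%), none of them a promoter of a member. Promoters were available for 9 of the 10 members, and Crabp2 had no entry. In the Rarb window (chr14:16575427-16575726, minus strand) the match lies at 16575513 to 16575529, 53 bases before the start. In the Cyp26a1 window (chr19:37697558-37697857, plus strand) it lies on the opposite strand at 37697776 to 37697792, 32 bases before the start. Both windows are printed 5′ to 3′ on the strand of the gene, with the DR5 match in capitals, and a match shows neither binding nor use in these cells.

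Rarb: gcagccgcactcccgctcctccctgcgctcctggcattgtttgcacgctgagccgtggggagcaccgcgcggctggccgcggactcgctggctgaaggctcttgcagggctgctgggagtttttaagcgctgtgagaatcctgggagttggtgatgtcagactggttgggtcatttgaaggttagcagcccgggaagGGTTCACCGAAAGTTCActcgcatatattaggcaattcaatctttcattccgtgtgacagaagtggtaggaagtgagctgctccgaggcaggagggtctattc
Cyp26a1: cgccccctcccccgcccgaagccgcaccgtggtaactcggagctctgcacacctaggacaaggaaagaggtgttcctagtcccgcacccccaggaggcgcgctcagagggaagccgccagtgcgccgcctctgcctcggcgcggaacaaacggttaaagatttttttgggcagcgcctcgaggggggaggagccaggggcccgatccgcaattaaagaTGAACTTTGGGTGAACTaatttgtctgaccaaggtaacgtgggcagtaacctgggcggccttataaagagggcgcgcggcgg

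The 2 members with a DR5 match were called in the same direction in 1 comparison and in opposite directions in 2. On conversion of Oct4-cKO cells both rose, under Dox in Sox2-cKO cells Rarb rose and Cyp26a1 fell, and in J1 L-EPSCs Rarb was lower and Cyp26a1 higher than in ESCs, with the frail calls named above. Known response genes outside the members were listed beside them (16 used here, of which 15 were tested in the J1 table). In D-EPSCs against ESCs 5 of the 15 were called higher and 5 lower (10.8% and 9.98% of all genes, median log2 fold change 0.36), in L-EPSCs 2 higher and 8 lower (8.80% and 11.5%, median −0.97), and between L-EPSCs and D-EPSCs 2 higher and 5 lower (4.80% and 8.58%, median −0.31), beside all-gene medians of 0.01, 0 and 0. On conversion 10 of the 16 used were called higher and 0 lower in Oct4-cKO cells (13% and 15.4% of all genes, median 1.41), 6 higher and 0 lower in Sox2-cKO cells (7.99% and 11.6%, median 0.86), and 9 higher and 0 lower in Nanog-cKO cells (12.2% and 14.7%, median 1.21), beside all-gene medians of 0. Where limma called 0 of these genes lower, 0 were lower at an unadjusted p under 0.05, and edgeR and DESeq2 called 0. Under Dox 3 were higher and 4 lower in Oct4-cKO cells (8.53% and 10.8% of all genes, median 0.15), 4 and 3 in Sox2-cKO cells (7.79% and 7.32%, median −0.14), and 4 and 1 in Nanog-cKO cells (2.80% and 2.59%, median 0.81), beside all-gene medians of 0. Dhrs3 and Cyp26b1 belong to this list and to a further list each. Whether feeder or other cells contributed to the J1 values of this list or of those below was not tested.

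Single response genes took different courses. Stra8 in Nanog-cKO cells stood at 72.1 and 75.1 in ESCs, 2305 and 2280 in untreated L-EPSCs and 8107 and 8341 under Dox, and rose at both steps (log2 4.94 and 1.84, limma, Benjamini-Hochberg adjusted p = 3.36e-16 and 3.70e-10). Cdx1 stood at 875 and 822 in J1 ESCs, 1.02 and 1.96 in D-EPSCs and 464 and 552 in L-EPSCs, so it was nearly absent from D-EPSCs only. Cyp26b1, a second clearing enzyme, stood at 64.7 and 75.6 in J1 ESCs, 169.5 and 169.4 in D-EPSCs and 37.0 and 34.5 in L-EPSCs, the reverse of Cyp26a1 between the EPSC types.

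The genes that supply retinoic acid and work with the receptors were counted in the same way over the 9 comparisons of groups, in which 2.80% to 13% of all genes were called higher and 2.59% to 15.4% lower. Of 6 genes used for retinoid uptake and storage, 0 to 3 were called higher and 0 to 2 lower (medians −0.65 to 1.10). With bounds over 5 genes, their median under Dox in Sox2-cKO cells was −1.27 in place of −0.64. Of 9 synthesis genes, 0 to 4 were higher and 0 to 3 lower (medians −0.54 to 1.07), with Rdh10, Rdh11, Dhrs3 and Adh1 higher on conversion of both Oct4-cKO and Sox2-cKO cells. Aldh1a2 was called lower on conversion of Sox2-cKO and Nanog-cKO cells. Of 3 genes of clearance and delivery, 0 to 2 were higher and 0 to 2 lower (medians −1.06 to 1.16). Between J1 L-EPSCs and D-EPSCs their median was −1.29 with bounds over 2 genes, in place of −0.37. Of 11 coregulators, 0 or 1 was higher and 0 to 7 lower (medians −0.70 to 0.29), the 7 on conversion of Nanog-cKO cells, where the median was lowest. Of 11 other partner receptors of RXR, 0 to 3 were higher and 0 to 3 lower (medians −0.92 to 0.69), and Vdr and Pparg were higher under Dox in all 3 lines. The all-gene medians were 0 to 0.01, and where limma called 0 genes of one of these lists, 0 to 8 had an unadjusted p under 0.05 and edgeR and DESeq2 each called 0 or 1. Pparg, whose product pairs with Rxra, went from 11.5 and 13.5 to 383.5 and 364 in Oct4-cKO cells under Dox (log2 4.80, limma, Benjamini-Hochberg adjusted p = 2.80e-06).

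Across the 18 tet-off libraries, which share groups and lines, each member was also set beside the 9920 other genes of ample level, as a description without a test. The gene most like Rarg was Rcor2 (Pearson r = 0.989), followed by Zfp281 (0.978) and Fzd5 (0.975). The closest to Rara was Itga3 (0.951), to Rarb Ppt1 (0.944), to Rxra F2r (0.970) and to Rxrb Chordc1 (0.892). The closest to Crabp1 was Surf6 (0.967), to Crabp2 Mfsd13a (0.944), to Cyp26a1 Cisd1 (0.915) and to Stra6 Kif21a (0.806), while Rxrg was too low on average (9.89) to be set beside others.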

How the data were processed

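The deposited signal of both tables, as provided by the authors, was taken as normalized counts. By the submitters' processing notes, reads were trimmed with Trim Galore 0.6.4, aligned to NCBIM37 with STAR 2.7.9a, counted with HTSeq 0.11.2 and normalized with DESeq2. The strand setting is not stated. Dividing out a size factor per library recovered whole numbers for 100% of values (tolerance 0.1 read), although in 2 Sox2-cKO libraries (ESC replicate 1 and untreated replicate 2) the factor lay too near 1 for an automatic test. Reads per library ran from 11612919 to 15069899 on genes in the J1 table and from 10807631 to 14798984 in the tet-off table. The branch of the plan for normalized values was used, namely limma 3.58.1 with a trend in R 4.3.3, with edgeR 4.0.16 and DESeq2 1.42.0 on recovered reads as alternatives. Over the 9 comparisons of groups limma called 1293 to 6822 genes, edgeR 1224 to 6693 and DESeq2 1090 to 6323. The 18 tet-off columns bear the titles of their samples, and the 6 J1 columns were assigned by the state in the sample description, the replicate number and the wild-type genotype, with 0 left unmatched. No exon of another gene overlaps an exon of a member, although introns of Stra6 and Rara hold other genes. The plan had named edgeR for whole counts, which these are not. The members and the lists were chosen with earlier results of these data known. Named outside the members were the 3 targeted genes, the marker lists, and lists of retinoid uptake and storage, synthesis, clearance and delivery, coregulators, RXR partner receptors and response genes. A further gene that the plan had placed in 2 lists is not reported here and was left out of both, while the genes kept in 2 lists count in each. Values were given for genes of a list that were called or that a sentence explains, and for each member the genes most like it.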

Additional observations from a re-analysis of the deposited data

Results flagged for a closer look

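Each value below is a difference between the lines that passed the limma test, given as the effect in the first line minus that in the second on the log2 scale. On conversion, Rara differed by −1.25 (Oct4-cKO against Nanog-cKO) with values of −1.17 and 0.08 in the lines. Rarb had a fitted difference of 3.14 (Oct4-cKO against Nanog-cKO), which is no measured size, as Oct4-cKO ESCs averaged under the floor, and the call depended on single libraries, as given in the report. Rarg differed by −1.41 (Oct4-cKO against Sox2-cKO) and by 1.11 (Sox2-cKO against Nanog-cKO), since its fall was smallest in Sox2-cKO cells. Rxrg had a fitted difference of 4.16 (Sox2-cKO against Nanog-cKO), again no measured size, with most groups at or near 0 reads. Crabp1 differed by −2.57 (Oct4-cKO against Nanog-cKO) and −2.23 (Sox2-cKO against Nanog-cKO), with opposite directions in the lines. Crabp2 differed by −2.68 (Oct4-cKO against Nanog-cKO) and −2.21 (Sox2-cKO against Nanog-cKO), with a rise called in Nanog-cKO cells. Stra6 differed by −2.11 (Sox2-cKO against Nanog-cKO).

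Under Dox, Rara differed by 1.33 (Sox2-cKO against Nanog-cKO), with a fall in Nanog-cKO cells. Rarg differed by −1.26 and Rxra by 1.30 (Oct4-cKO against Nanog-cKO), with the stronger effect in Oct4-cKO cells. Crabp1 differed by −1.45 (Oct4-cKO against Nanog-cKO) and −2.08 (Sox2-cKO against Nanog-cKO), although it fell in each line. Cyp26a1 differed by 3.16 (Oct4-cKO against Sox2-cKO) and −4.75 (Sox2-cKO against Nanog-cKO), with almost no reads in Sox2-cKO cells under Dox. Stra6 differed by −1.67 (Sox2-cKO against Nanog-cKO).

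L-EPSCs against ESCs were called in opposite directions in the J1 and tet-off tables for several members, and these differences were not tested. In Oct4-cKO cells the fitted values were −1.17 for Rara, 2.61 for Rarb, −2.04 for Rarg, −2.96 for Rxrg and −1.28 for Crabp1. In Sox2-cKO cells they were −0.63 for Rarg and −0.95 for Crabp1. In Nanog-cKO cells they were −1.74 for Rarg, −5.46 for Rxrg and 2.26 for Crabp2. The fitted values of Rxrg, and of Rarb in Oct4-cKO cells, rest on groups with almost no reads and are not folds.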

How the results depend on the processing

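Of 1013 fold changes of members under alternatives, 945 kept their call and sign, 48 lost the call, 7 gained one and 13 changed sign. These leave out 5 pairs of a member and a comparison with no fold, at or under the floor. Of those, Rxrg on conversion of Sox2-cKO cells (lowest adjusted p over alternatives 0.0217) and Cyp26a1 in J1 D-EPSCs against ESCs (0.0274) each passed when 1 library was left out. Replicate numbers did not pair samples, as residual correlations between groups ran from −0.0093 to −0.00127 (J1) and from −0.0279 to 0.0402 (tet-off). With replicate number as a block, members called were 5 in place of 6 (J1 D-EPSCs against ESCs, Rarb lost at adjusted p = 0.0506), 4 in place of 5 (Dox in Sox2-cKO cells, Rarb lost at 0.0528) and 5 in place of 4 (conversion, Oct4-cKO against Nanog-cKO, Stra6 gained at 0.0471), and as before elsewhere.

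A stricter fold threshold of 1 lowers counts by construction. It took the genes called from 4380 to 2899 (J1 L-EPSCs against ESCs), from 2881 to 1836 (J1 L-EPSCs against D-EPSCs), from 6822 to 4466 (conversion, Oct4-cKO), from 4713 to 2990 (conversion, Sox2-cKO) and from 6457 to 4196 (conversion, Nanog-cKO), and the members called on conversion of Sox2-cKO cells from 3 to 0. A threshold of 0.6 for Dox raised the genes called from 3628 to 5568 (Sox2-cKO) and from 1293 to 2386 (Nanog-cKO), and the members called in Oct4-cKO cells from 4 to 7. With the groups fitted alone, Dox in Nanog-cKO cells gave 479 genes, and the share called higher went from 51.97% to 37.79%. The cause was not tested.

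Members called between J1 L-EPSCs and D-EPSCs were 2, and 1 with the groups fitted alone, with a mean of at least 10 and with a pseudocount of 0.1. With 1 library left out at a time they were 1 to 2, and the genes called there were 1913 to 2104 (2881 with all libraries). The same ranges for members were 5 to 6 (J1 D-EPSCs against ESCs, 6 with all), 6 to 7 (J1 L-EPSCs against ESCs, 8), 5 to 7 (conversion, Oct4-cKO, 7), 1 to 3 (conversion, Sox2-cKO, 3), 5 to 6 (conversion, Nanog-cKO, 6), 3 to 4 (Dox, Oct4-cKO, 4), 4 to 4 (Dox, Sox2-cKO, 5) and 4 to 4 (Dox, Nanog-cKO, 4). For differences between lines they were 1 to 2 (conversion, Oct4-cKO against Sox2-cKO, 1), 3 to 4 (Oct4-cKO against Nanog-cKO, 4), 3 to 5 (Sox2-cKO against Nanog-cKO, 5), 1 to 2 (Dox, Oct4-cKO against Sox2-cKO, 1), 3 to 4 (Oct4-cKO against Nanog-cKO, 3) and 3 to 4 (Sox2-cKO against Nanog-cKO, 4). For Dox, Oct4-cKO against Nanog-cKO, edgeR gave 6 and a mean of at least 10 gave 5.

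Signs changed only for fold changes that were not called. Rxrb in J1 L-EPSCs against ESCs (0.08) ran from −0.0247 to 0.186 with 1 library left out. Rxrb on conversion of Nanog-cKO cells (−0.02) ran from −0.0581 to 0.0238, and was 0.0200 with TMM scaling and 0.0203 with edgeR. Crabp2 in J1 D-EPSCs against ESCs (0.07) ran from −0.0114 to 0.149, and on conversion of Sox2-cKO cells (0.04) from −0.0814 to 0.167, with −0.0166 without ESC replicate 1. Cyp26a1 under Dox in Nanog-cKO cells (0.02) ran from −0.694 to 0.741, with −0.214 without untreated replicate 2. Stra6 in J1 D-EPSCs against ESCs (0.45) ran from −0.526 to 1.42, and between J1 L-EPSCs and D-EPSCs (0.97) from −0.00924 to 1.94. Stra6 under Dox ran from −0.0754 to 1.00 in Oct4-cKO cells (0.46) and from −0.0898 to 0.545 in Sox2-cKO cells (0.23).

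The main limits are 2 libraries per group of unstated independence, low counts for Rarb, Rxrg, Cyp26a1 and Stra6, a single tet-off line per targeted gene, and J1 cultures with fibroblast and macrophage RNA. Protein and retinoid levels were not analysed here.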
